A study of Homo sapiens with 23 samples.

Results

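The genes described here are the core of the cyclin D, CDK4/6 and RB switch of the cell cycle: the kinases CDK4 and CDK6, the cyclins CCND1, CCND2, CCND3 and CCNE1, the pocket proteins RB1, RBL1 and RBL2, and the inhibitor gene CDKN2A. They were chosen by symbol, and all 10 were found among the 61217 genes listed in each deposited table. The study measured polyA RNA by sequencing in C-33A, labelled as an HPV-negative cervical squamous carcinoma line, and in CaSki, labelled as an HPV-positive line from a metastasis. Every group was treated at 100 nM, with a negative control or a microRNA mimic of hsa-miR-124-3p, hsa-miR-23b-3p or hsa-miR-218-5p. The 23 samples form 8 groups of 3 samples, except C-33A with miR-124-3p, which has 2. Untreated cells are not among the groups, and each line is a single established line, so a difference between lines is one between these lines and not between HPV states.

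In a dividing cell, D-type cyclins bind CDK4 or CDK6, and the active kinase phosphorylates RB1 and its relatives RBL1 (p107) and RBL2 (p130). The phosphorylated pocket proteins let go of E2F factors, which switch on the genes of DNA replication, among them CCNE1, the cyclin that drives CDK2. The p16 protein from CDKN2A blocks CDK4 and CDK6, and its level is known to be high where RB function is lost. The E7 protein of high-risk papillomaviruses binds pocket proteins and disables them, and C-33A is known to carry a mutated RB1 gene. A microRNA guides Argonaute to mRNAs that pair with its seed, the bases near its 5′ end, and lowers those mRNAs. CDK6 is known as a target of miR-124-3p and miR-218-5p, and CDK4 as a target of miR-124-3p.

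The sequences below show where the microRNAs could pair with these genes. The mature sequences are from RefSeq (GRCh38.p14), written 5′ to 3′, with the seed (bases 2 to 8) in capitals.
miR-23b-3p: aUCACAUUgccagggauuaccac
miR-218-5p: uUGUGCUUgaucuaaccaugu
The seeds of these microRNAs differ. Matches to bases 2 to 8 were searched on the sense strand only, in each gene's 3′ UTR as its longest coding transcript has it (GENCODE release 29, build GRCh38). The letters searched were AATGTGA for miR-23b-3p, AAGCACA for miR-218-5p and GTGCCTT for miR-124-3p. Of 19046 genes with a 3′ UTR, 18.1% held AATGTGA, 13.7% held AAGCACA and 13.96% held GTGCCTT. An 8mer adds an A right after that match, and a 7mer-A1 is a match to bases 2 to 7 followed by an A. In the sites below the capitals mark the match, on the mRNA strand.
CDK4, miR-124-3p, 7mer-A1 at chr12:57748389-57748394: gattactttgcTGCCTTaatgacattcc
CDK6, miR-124-3p, 7mer at chr7:92613601-92613607: cttatttctaGTGCCTTgtgctcactc
CDK6, miR-218-5p, 8mer at chr7:92612635-92612641: agaaaaattaAAGCACAaacattctgg
CDK6, miR-23b-3p, 7mer at chr7:92613249-92613255: tttgcagcttAATGTGAtatatgacta
CCND2, miR-124-3p, 8mer at chr12:4304737-4304743: gggaaataaaGTGCCTTactgactgta
CCND3, miR-124-3p, 7mer at chr6:41935569-41935575: aaatgctctaGTGCCTTctaaaggtgt
RBL1, miR-124-3p, 7mer at chr20:36998543-36998549: aatattttaaGTGCCTTttaaaaatac
RBL2, miR-23b-3p, 8mer at chr16:53491006-53491012: cactttctacAATGTGAactttattaa
CDK4, CDK6, CCND3 and RBL1 lie on the minus strand, and CCND2 and RBL2 on the plus strand. All of these matches are exonic, in 3′ UTRs. CDK6 has a 3′ UTR of 10219 nt and held 2 matches for miR-124-3p, 1 for miR-23b-3p and 3 for miR-218-5p. CDK4, with a 3′ UTR of 798 nt, held no match to bases 2 to 8 of any of the 3 microRNAs, and its site shown is the shorter kind. RBL1 held 2 matches for miR-124-3p, CCND1 held 1 each for miR-23b-3p and miR-218-5p, and CCNE1, RB1 and CDKN2A held none in the transcript searched. In RB1, 1 of 4 protein coding transcripts held a match for miR-23b-3p.

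The files used here hold the authors' edgeR statistics for each mimic against the control of its line and give no values per sample, so the depth of each library is unknown. The standard error (SE) beside each log2 fold change was recovered from the deposited p-value, and a gene passed where the deposited FDR, printed as the adjusted p, was under 0.05. A level in CPM (read counts scaled to library size) for each group was therefore derived from the deposited average level and log2 fold change, and is called the implied level. The control level implied by the 3 tables of a line differed by at most 0.03 (log2) in C-33A and 0.18 in CaSki, both for CDK6. The lines matched their label unequally. In CaSki 5 of 5 squamous markers (KRT5, KRT14, KRT17, TP63, SFN) stood at 0 or above on the average log2 CPM scale, and in C-33A 0 of 5 did, their summed level lying between 0.838 and 1.01 CPM against 7670 to 7780 CPM in CaSki. Of 5 simple epithelium markers 2 reached that level in C-33A (KRT8, KRT18) and 5 in CaSki. Of the fibroblast, leukocyte and endothelial markers COL1A2 and PTPRC did in C-33A, and COL1A1 and CDH5 in CaSki. The sample titles number the samples of a group, with the same numbers across the groups of a line. C-33A with miR-124-3p lacks the first number. Separate cultures are not stated in the labels for the samples of a group. The p-values therefore measure only how these samples vary, and that spread may be technical. In C-33A the median degrees of freedom recovered from the deposited statistics were 183700 or more, against 25.7 to 38.2 in CaSki, so the C-33A tests gave the spread of a single gene almost no weight. A lower level in these bulk RNA samples can be fewer cells with the RNA or less of it per cell, which cannot be told apart.

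The control cells of the lines differed most in CDK6. Its implied level was 2.62 CPM in C-33A and 609 CPM in CaSki, a 232-fold difference, and 2.57% of the 17900 genes expressed in either line differed more. CDK4 was nearly level, at 141 CPM in C-33A and 163 CPM in CaSki. Scaled to the length of the longest coding transcript, CDK4 stood at 67.8 and CDK6 at 0.226 CPM per kb in C-33A, a ratio of 300 to 1. In CaSki they stood at 78.5 and 52.5 CPM per kb, a ratio of 1.5 to 1, although CDK6 was the higher in CPM. Which transcripts these cells use is not known here, so the values per kb rest on the length chosen. The lines were normalised in separate tables, so these level differences have no test.

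All D-type cyclins were also lower in C-33A than in CaSki, on the scale of implied control CPM. CCND1 stood at 21.6 against 160 CPM, CCND2 at 28.3 against 168 CPM and CCND3 at 7.74 against 23.4 CPM. CCNE1 ran the other way, at 65.2 CPM in C-33A and 21.1 CPM in CaSki, 3.09-fold higher in C-33A. Summed over the D-type cyclins, the level per kb was 12.6 CPM per kb in C-33A and 72.8 in CaSki. Among the pocket proteins RBL1 was 2.32-fold higher in CaSki, while RB1 (46.7 and 54.8 CPM) and RBL2 (88.7 and 97.4 CPM) were close in both lines. Differences of this size were common among the genes expressed in either line. Of those genes 19.2% differed more than CCND1, 21.1% more than CCND2 and 32.2% more than CCND3. The share was 31.6% for CCNE1 and 41.2% for RBL1, and the median absolute difference was 0.954 (log2). CDKN2A was the highest of the 10 genes per kb in both lines, at 99.9 CPM per kb in C-33A and 118 in CaSki. CDKN2A yields p16 and p14ARF from shared exons, and a count per gene cannot tell them apart. In C-33A the order per kb ran CDKN2A, CDK4, CCNE1, RBL2, RBL1, RB1, CCND1, CCND2, CCND3, CDK6. In CaSki it ran CDKN2A, CDK4, CDK6, CCND1, RBL1, CCND2, RBL2, RB1, CCNE1, CCND3. No spread between samples could be given, so neighbours in these orders are not shown to differ. The orders also rest on the length of the longest coding transcript.

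**Figure D1:**
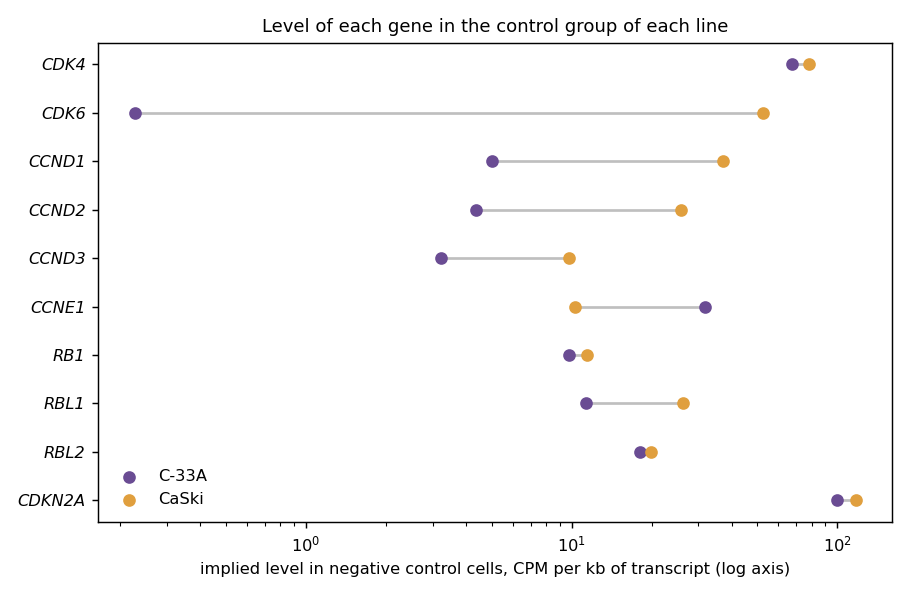
Implied level of each gene in the negative control group of C-33A (purple) and CaSki (orange), in CPM per kb of the longest coding transcript on a log axis; each point is the mean over the 3 tables of a line, with no error. CDK6 is 0.226 in C-33A and 52.5 in CaSki, while CDK4, RB1, RBL2 and CDKN2A nearly coincide.

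Of the 10 genes, 5 changed in 1 comparison each at a deposited FDR under 0.05. With miR-124-3p, CCND2 fell in C-33A and CDK4 fell in CaSki. With miR-23b-3p, CCND3 rose in C-33A, and CDK6 and RB1 rose in CaSki. With miR-218-5p 0 of the 10 changed in either line in the authors' edgeR test. As background, among expressed genes, taken as those at or above 0 on the average log2 CPM scale and including all 10 here, 0.634% were called in C-33A with miR-124-3p, 0.191% with miR-23b-3p and 0.299% with miR-218-5p. In CaSki the shares were 1.2%, 9.09% and 0.0978%. The count of 2 of 10 in CaSki with miR-23b-3p thus stands beside a background of 9.09%.

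At an unadjusted p under 0.05 the count was 5 of 10 in C-33A and 6 of 10 in CaSki with miR-124-3p, against 9.57% and 14.7% of expressed genes. It was 3 of 10 and 5 of 10 with miR-23b-3p, against 4.23% and 29.7%. With miR-218-5p it was 0 of 10 in C-33A and 2 of 10 in CaSki, against 5.05% and 6.85%. The comparisons within a line share their control samples, so these counts are not independent. The median log2 fold change of the 10 genes lay between -0.22 and 0.12, with the median of expressed genes between -0.04 and 0.01.

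**Figure D2:**
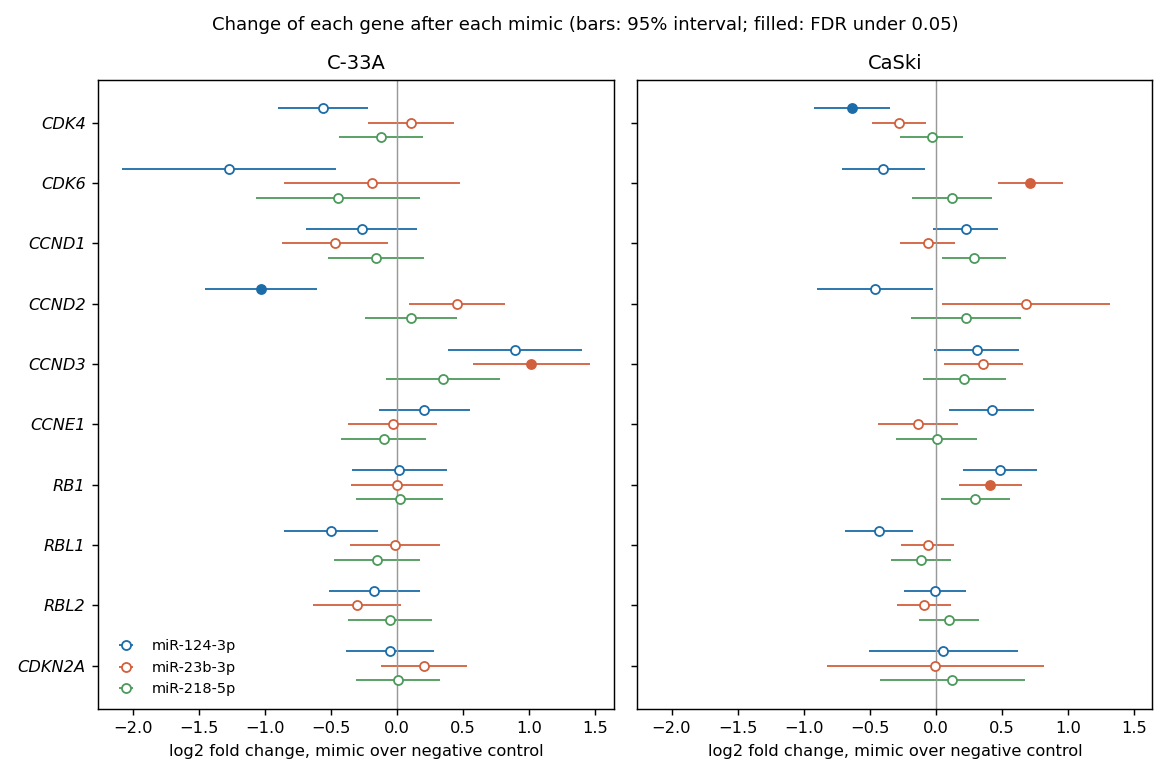
Log2 fold change of each gene (rows) for each mimic (colours) in C-33A (left) and CaSki (right), with 95% intervals from the recovered standard error; filled points have a deposited FDR under 0.05. The filled points are CCND2 and CCND3 in C-33A and CDK4, CDK6 and RB1 in CaSki.

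Among the kinases, CDK4 was lower with miR-124-3p by nearly the same amount in both lines. The implied level went from 161 to 104 CPM in CaSki, where the authors' deposited table puts the log2 fold change at -0.63 and CDK4 fell (SE 0.148, adjusted p = 0.0128). It went from 142 to 96.4 CPM in C-33A, where the log2 fold change in the authors' deposited table was -0.56 and did not pass (SE 0.173, adjusted p = 0.348). The difference between lines was -0.08 (95% interval -0.52 to 0.37). With miR-23b-3p CDK4 stood at 0.10 in C-33A and -0.28 in CaSki, and with miR-218-5p at -0.12 and -0.03, none of which passed in the authors' deposited table. The value with miR-23b-3p in CaSki passed when p-values were adjusted only over genes at or above 1 on the average log2 CPM scale, a rule under which 18.9% of those genes passed. In CaSki the fall with miR-124-3p did not pass once the trend of fold changes with transcript length and GC content was removed (-0.55, adjusted p = 0.0661).

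CDK4 shares 43.2% of its annotated exon bases with TSPAN31, a tetraspanin gene on the opposite strand, and the labels describe second-strand synthesis with dTTP, which leaves no mark of the strand. TSPAN31 averaged a log2 CPM of 3.04 in C-33A and 3.47 in CaSki with miR-124-3p, against 6.95 and 7.05 for CDK4. Its log2 fold changes there were -0.13 and -0.14 in the authors' deposited table, and neither passed. Reads from the shared bases cannot be told apart, and their part in the CDK4 values was not tested. Smaller overlaps hold 13.8% of the exon bases of CCND2 (with AC008012.1), 10.3% of CCND1 (LTO1) and 7.88% of CDKN2A (CDKN2B-AS1). In RBL2 they hold 9.85% (AC007342.6) and 8.33% (AKTIP). AC008012.1 lies on the same strand as CCND2, and the other genes of these smaller overlaps lie on the opposite strand. Reads from the bases shared there cannot be told apart either, and their part in the member values was not tested.

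CDK6 rose with miR-23b-3p in CaSki, the line in which it is abundant, and did not pass with the other mimics. With miR-23b-3p its implied level went from 564 to 926 CPM, a rise of 0.72 on the log2 scale (SE 0.126, adjusted p = 1.98e-05) in the authors' deposited table. With miR-124-3p it went from 637 to 484 CPM, a log2 fold change of -0.40 that did not pass (SE 0.161, adjusted p = 0.693) in the authors' deposited table. With miR-218-5p it went from 630 to 686 CPM, at 0.12 (SE 0.153); CDK6 holds 3 matches for this microRNA. With the length and GC trend taken out, the value with miR-23b-3p was 0.42 and did not pass (adjusted p = 0.0537). The longest CDK6 transcript has 11612 nt. Against the mean of the other 2 mimics CDK6 with miR-23b-3p stood at 0.85 and passed in a normal test (adjusted p = 3.72e-11), beside 1.74% of expressed genes. That comparator includes miR-124-3p, with which CDK6 stood at -0.40.

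In C-33A CDK6 averaged a log2 CPM of 1.02 to 1.28, and its standard errors were the largest there. Its implied level went from 2.65 to 1.10 CPM with miR-124-3p, a log2 fold change of -1.27 (SE 0.414, adjusted p = 0.486) in the authors' deposited table. This was the lowest value of the 10 genes in any comparison, and it did not pass. With miR-23b-3p and miR-218-5p it stood at -0.19 (SE 0.341) and -0.45 (SE 0.315) in the authors' deposited table. The difference between lines with miR-23b-3p was 0.90 (95% interval 0.19 to 1.62, unadjusted p = 0.0129, adjusted p = 0.177).

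Of the D-type cyclins CCND2 fell with miR-124-3p and CCND3 rose with miR-23b-3p, both in C-33A. CCND2, which carries an 8mer for miR-124-3p, fell by 1.03 with miR-124-3p in C-33A (SE 0.215, adjusted p = 0.0025) in the authors' deposited table. Its implied level there went from 28.5 to 13.97 CPM. In CaSki it went from 173 to 126 CPM, with a log2 fold change of -0.46 that did not pass (SE 0.223, adjusted p = 1.0) in the authors' deposited table. With miR-23b-3p CCND2 stood higher in both lines without passing, at 0.45 (SE 0.185) in C-33A and 0.68 (SE 0.325) in CaSki in the authors' deposited table. With miR-218-5p it stood at 0.11 and 0.23.

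CCND3, the least abundant D-type cyclin per kb in both lines, stood above the control in all 6 comparisons. The change passed with miR-23b-3p in C-33A, where the authors' deposited table has it rise by 1.02 (SE 0.226, adjusted p = 0.0217). There the implied level went from 7.64 to 15.5 CPM. With miR-124-3p in C-33A the level went from 7.80 to 14.5 CPM, a value of 0.89 that did not pass (SE 0.259, adjusted p = 0.194) in the authors' deposited table; CCND3 holds a match for that microRNA. With miR-218-5p in C-33A it stood at 0.35, and in CaSki at 0.22, 0.31 and 0.36 with miR-218-5p, miR-124-3p and miR-23b-3p. The comparisons of a line share their controls, so these directions are not independent. Against the mean of the other 2 mimics, in which the controls cancel, CCND3 with miR-23b-3p in C-33A stood at 0.40 and did not pass (adjusted p = 1.0). With the length and GC trend taken out it stood at 0.92 (adjusted p = 0.129).

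CCND1 did not pass in any comparison. Its log2 fold changes in the authors' deposited table were -0.16, -0.27 and -0.47 in C-33A with miR-218-5p, miR-124-3p and miR-23b-3p, and 0.29, 0.23 and -0.06 in CaSki. The furthest from 0, -0.47 with miR-23b-3p in C-33A, had an SE of 0.203 and an adjusted p of 1.0. CCNE1, the cyclin of CDK2, likewise passed in none: it stood between -0.10 and 0.21 in C-33A and between -0.14 and 0.42 in CaSki, the highest being with miR-124-3p (SE 0.164, adjusted p = 0.578).

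**Figure D3:**
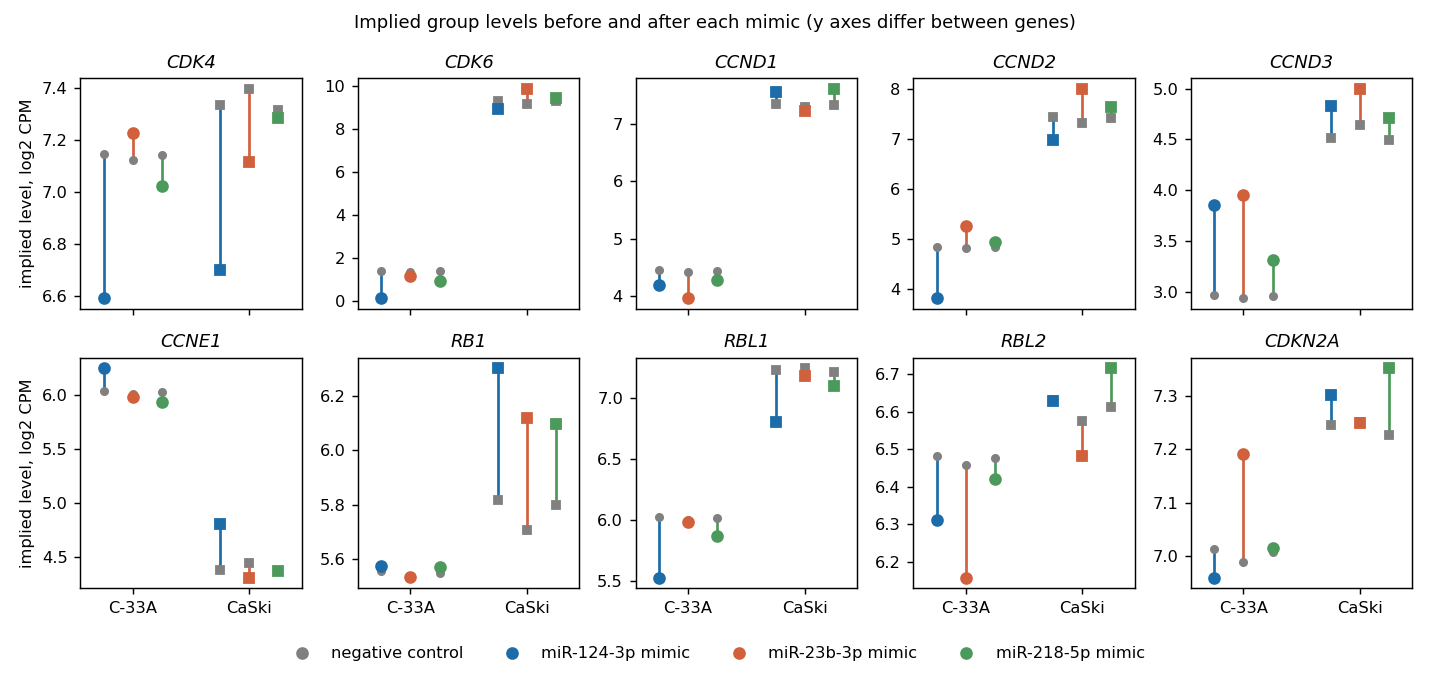
Implied log2 CPM of each gene in the negative control (grey) and in the mimic group (coloured) of each comparison, with C-33A as circles and CaSki as squares; a line joins the 2 groups of a comparison and the y axes differ between genes. CDK6, CCND1, CCND2, CCND3 and RBL1 are lower in C-33A than in CaSki in every group, and CCNE1 is higher.

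Among the pocket proteins RB1 stood higher in CaSki with each mimic, and level in C-33A. In CaSki it rose by 0.41 with miR-23b-3p (SE 0.122, adjusted p = 0.035) in the authors' deposited table, from 52.3 to 69.6 CPM. The value with miR-124-3p was larger, 0.49, from 56.4 to 78.9 CPM, but did not pass (SE 0.143, adjusted p = 0.136) in the authors' deposited table. With miR-218-5p it was 0.30 (SE 0.133, adjusted p = 1.0). In C-33A the log2 fold changes of RB1 in the authors' deposited table were 0.02, 0.00 and 0.02, with SEs of 0.185, 0.177 and 0.168. Against the other 2 mimics the CaSki value with miR-23b-3p was 0.02 (adjusted p = 1.0). It was 0.27 once the length and GC trend was taken out (adjusted p = 0.42).

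RBL1, with 2 matches for miR-124-3p, was lower with that mimic in both lines without passing. The implied level went from 65.0 to 46.0 CPM in C-33A (log2 fold change -0.50, SE 0.183, adjusted p = 0.826) and from 150 to 111 CPM in CaSki (-0.43, SE 0.131, adjusted p = 0.185), in the authors' deposited table. With p-values adjusted over the expressed genes alone, RBL1 and RB1 passed beside CDK4 in CaSki with miR-124-3p, 3 of 10 against 2.42% of expressed genes. With miR-23b-3p RBL1 stood at -0.01 and -0.06, and with miR-218-5p at -0.15 and -0.11. RBL2 passed in no comparison and stood between -0.30 and 0.10, the lowest with miR-23b-3p in C-33A (SE 0.170, adjusted p = 1.0); it holds an 8mer for miR-23b-3p. CDKN2A stood between -0.05 and 0.20 in C-33A and between 0.00 and 0.13 in CaSki, with no value passing in the authors' deposited table.

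The change after a mimic was then compared between the lines with a normal test of the difference, adjusted over all genes expressed in both. For none of the 10 genes did the difference pass, for any mimic. Of the genes expressed in both lines, 1.7% passed with miR-23b-3p and 0.0% with miR-124-3p and miR-218-5p. At an unadjusted p under 0.05 there were CDK6, CCND1 and RB1 with miR-124-3p, CDK6 and CCND3 with miR-23b-3p, and CCND1 with miR-218-5p, against 2.51%, 15.6% and 1.56% of those genes. With miR-124-3p the differences, CaSki minus C-33A, were 0.87 for CDK6 (95% interval 0.0031 to 1.74), 0.49 for CCND1 (0.01 to 0.98) and 0.47 for RB1 (0.01 to 0.92), each with an adjusted p of 1.0. The difference for CCND2 was 0.57 (-0.04 to 1.18) and for RBL1 0.07 (-0.37 to 0.51), so intervals remained wide. CCND3 differed by -0.66 with miR-23b-3p (-1.20 to -0.13, adjusted p = 0.191).

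**Figure D4:**
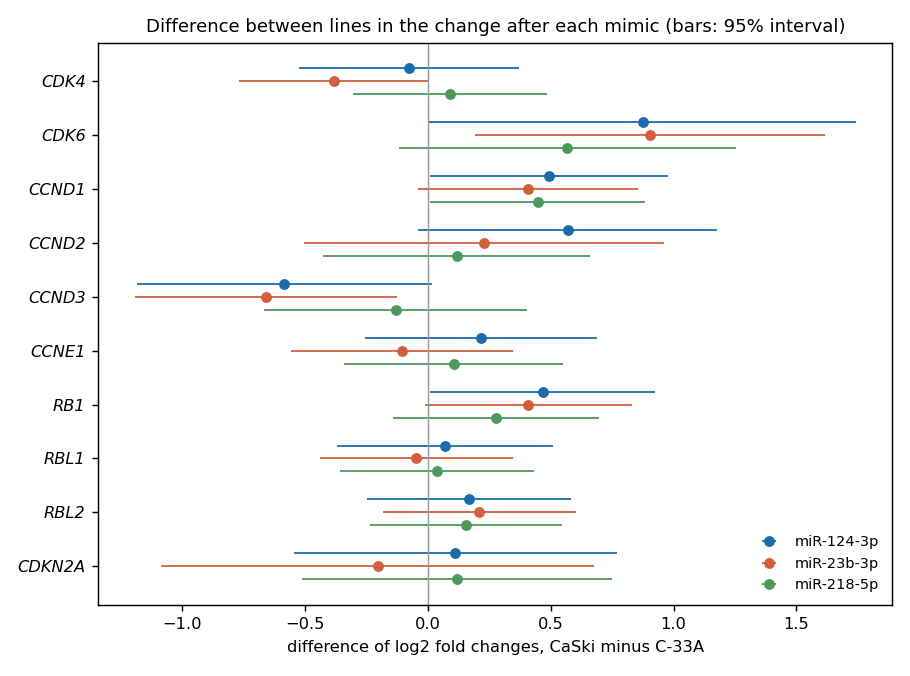
Difference between the log2 fold change in CaSki and in C-33A for each gene and mimic, with its 95% interval; a point right of 0 has the higher fold change in CaSki. For CDK6 all 3 points lie right of 0, at 0.87, 0.90 and 0.57, and for CCND3 all lie left of 0.

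Against the other 2 mimics of the line, the contrast in which control libraries cancel, 3 of 10 passed in CaSki with miR-124-3p, namely CDK4, CDK6 and CCND2, beside 2.05% of expressed genes. CDK6 stood at -0.82 (adjusted p = 6.97e-06) and CCND2 at -0.91 (adjusted p = 0.00109) in a normal test. That test used the SE of the miR-124-3p comparison alone, scaled by group sizes. CCND2 had 9.67 recovered degrees of freedom there, for which a normal test gives too small a p, so its pass is uncertain. With miR-23b-3p in CaSki, where its SE was larger, CCND2 stood at 0.80 in this contrast and did not pass (adjusted p = 0.281). In CaSki CDK6 and CCND2 stood above the control with each of the other mimics. In C-33A with miR-23b-3p 1 of 10 passed, beside 0.532% of expressed genes: CCND2 stood at 0.91 (adjusted p = 0.000122). That comparator includes miR-124-3p, with which CCND2 fell by 1.03, and against the control the value with miR-23b-3p was 0.45 and did not pass (adjusted p = 1.0).

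**Figure D5:**
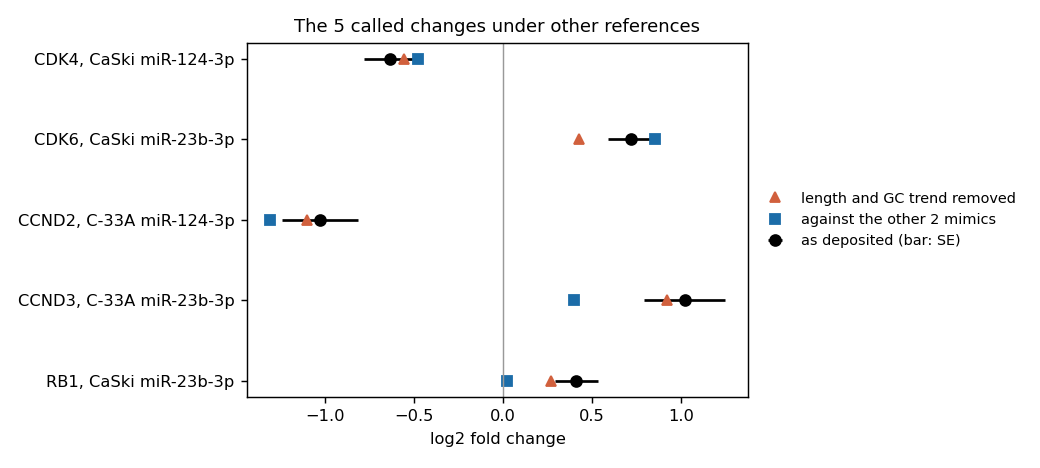
Log2 fold change of the 5 called gene and comparison pairs as deposited (black, with SE), with the length and GC trend removed (orange) and against the mean of the other 2 mimics (blue). CCND2 in C-33A stays below -1 under each, and RB1 in CaSki with miR-23b-3p goes from 0.41 to 0.02 against the other mimics.

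Around these genes, 52 genes in 6 lists cover the other CDK inhibitors, the cyclin E and CDK2 axis, protein turnover, E2F factors, the MuvB core, and E2F target genes. With miR-124-3p, 1 of 52 changed in each line, beside 0.634% of expressed genes in C-33A and 1.2% in CaSki. It was SKP2 in both, the ubiquitin ligase subunit that marks the inhibitor p27 for destruction. SKP2 fell by 0.86 in C-33A (SE 0.175, adjusted p = 0.00139) and by 1.01 in CaSki (SE 0.168, adjusted p = 1.04e-05) in the authors' deposited table. It stood between -0.04 and 0.08 with the other mimics, and its 3′ UTR held 1 match for miR-124-3p. CDKN1B, which encodes p27, stood at 0.40 in C-33A and 0.16 in CaSki with miR-124-3p and did not pass. Its RNA does not measure the p27 protein on which SKP2 acts. In C-33A and CaSki it stood at 0.44 and 0.12 with miR-23b-3p and at -0.18 and -0.09 with miR-218-5p, without passing.

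With miR-23b-3p in CaSki 6 of 52 changed, 2 higher and 4 lower, beside 5.25% and 3.84% of expressed genes. E2F7, a repressor of E2F targets, rose by 0.76 (adjusted p = 3e-05) and E2F2, an activator, by 0.56 (adjusted p = 0.044) in the authors' deposited table. CDC37, the cochaperone that delivers CDK4 to HSP90, fell by 0.59 (adjusted p = 0.000386) in the authors' deposited table. PCNA, the replication clamp, fell by 0.36 (adjusted p = 0.0363), and CCNH, the cyclin of the CDK-activating kinase, by 0.45 (adjusted p = 0.0495) in the authors' deposited table. Against the other 2 mimics none of these 6 genes passed, and E2F7 stood at 0.32 (adjusted p = 0.375), having stood at 0.48 and 0.42 with miR-124-3p and miR-218-5p against the control. In that contrast E2F2 stood at 0.47, CDC37 at -0.25, PCNA at -0.07 and CCNH at -0.31. With the length and GC trend taken out E2F2 (0.50, adjusted p = 0.138), CDC37 (-0.38, adjusted p = 0.0869) and PCNA (-0.29, adjusted p = 0.2) did not pass. With miR-23b-3p in C-33A and with miR-218-5p in either line 0 of 52 changed in the authors' edgeR test, with 4, 2 and 1 of 52 at an unadjusted p under 0.05, beside 4.23%, 5.05% and 6.85% of expressed genes. At that level there were 9 of 52 in C-33A and 12 of 52 in CaSki with miR-124-3p, beside 9.57% and 14.7%, and 19 of 52 in CaSki with miR-23b-3p, beside 29.7% of expressed genes.

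The 16 E2F target genes, among them the MCM helicase subunits, had a median above 0 only in C-33A with miR-23b-3p. Their median log2 fold change was -0.19 in C-33A with miR-124-3p, with 0 of 16 called. It lay between -0.09 and 0.08 in the other 5 comparisons, with the median of expressed genes between -0.04 and 0.01 over all comparisons. With miR-23b-3p in CaSki 2 of 16 were called, beside 9.09% of expressed genes. Elsewhere 0 of 16 were, beside 0.0978% to 1.2% of expressed genes. None of the CDK inhibitors was called with miR-124-3p. Over the inhibitors expressed in any table of the line, a choice made after seeing the data, their median log2 fold change with miR-124-3p was 0.08 in C-33A (5 of 6 genes) and 0.26 in CaSki (6 of 6). The inhibitor CDKN2D (p19) stood at 0.97 in C-33A (SE 0.255, adjusted p = 0.0738) and at 0.63 in CaSki (adjusted p = 0.272) in the authors' deposited table. CDKN1A (p21) stood at -1.14 in C-33A (SE 0.564, adjusted p = 1.0) and at 0.62 in CaSki (SE 0.209, adjusted p = 0.319) with miR-124-3p in the authors' deposited table. It averaged a log2 CPM of -0.28 to 0.19 in C-33A and 6.10 to 6.24 in CaSki. The median in C-33A was 0.24 over the 4 inhibitors at or above 0 in that comparison itself, which leaves CDKN1A out.

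Genes with a pattern of 6 log2 fold changes like that of a called member were sought by Euclidean distance among the 10962 genes at or above 1 on the average log2 CPM scale in all tables. Among the 3 genes nearest to CDK4 were ABT1 (distance 0.132) and ZWINT (0.148), against a median distance of 0.983. Nearest to RB1 were ZC3HAV1 (0.151), FBXO11 (0.157) and ZNF507 (0.161), against 0.841. CDK6, CCND2 and CCND3 had no gene as close: the nearest were SYPL1 (0.503), ANXA5 (0.494) and SUN2 (0.468), against medians of 1.641, 1.485 and 1.581. The distance gave no weight to the SE, which reached 0.414 for CDK6 in C-33A with miR-124-3p. Distances of different members are therefore not on an equal footing.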

How the data were processed

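Tools named per the submitters' processing notes are STAR 2.7.10b, FastQC 0.73, edgeR 3.36.0 and featureCounts 2.0.3, and the build is hg38 (GRCh38). For 61217 genes in each of 6 comparisons the authors deposited a p-value and its FDR, an F score, and on the log2 scale the fold change and the average CPM. Recomputing the FDR by the Benjamini-Hochberg method over all listed genes gave the deposited values. Depth per sample is unknown, so no interval that needs it is given.

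From these, a standard error was recovered as the log2 fold change over the normal quantile of the p-value, with 95% intervals of 1.96 SE. Calls use the deposited FDR under 0.05. Implied levels take the average log2 CPM as the log2 of the mean CPM over the libraries. Line differences were tested by a normal test, in Python 3.11.15 with scipy 1.17.1. The trend on length and GC content was a robust spline (statsmodels 0.14.6) fitted to expressed genes (0 or above on the average log2 CPM scale); 96.5% or more of these had a transcript. The contrast with the other 2 mimics scaled the SE of the mimic's own comparison by group sizes. Both alternatives used a normal test and were adjusted over all listed genes. The design foresaw a fit to counts per sample, which were not used here; the deposited statistics took its place. The steps were tested on simulated data. Named genes are the 10 members, called genes of the 6 pathway lists (up to 6 per comparison) with the lists' medians, and the 3 genes nearest to each called member; TSPAN31, CDK6-AS1, CDKN1A, CDKN1B and CDKN2D, which are outside this rule, were chosen after their values were seen. The values of 1 called pathway gene and 1 nearest gene are not reported here. The members and lists were chosen with earlier results of these data known.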

Additional observations from a re-analysis of the deposited data

How the results depend on the processing

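No paired analysis was possible because the files hold statistics per comparison and no values per sample; for the same reason fits without single replicates were not run. Subtracting the median of expressed genes moved no count by over 1.5 times. At an FDR under 0.01, 0 members were called in C-33A with miR-23b-3p or CaSki with miR-124-3p, beside 0.092% and 0.491% of expressed genes. In CaSki with miR-23b-3p 1 member was called, beside 4.76%. Adjusted over expressed genes alone, with the floor at 0 or at 1 on the average log2 CPM scale, they were 2 in C-33A (CCND2, CCND3; 1.13% and 1.46% of genes at those floors) and 3 in CaSki (CDK4, RB1, RBL1; 2.42% and 3.1%) with miR-124-3p. At the floor of 1 they were 3 in CaSki with miR-23b-3p (CDK4, CDK6, RB1; 18.9%). With the length and GC trend removed, 0 were called in C-33A with miR-23b-3p and in CaSki with miR-124-3p and miR-23b-3p. Of expressed genes 0.0854%, 0.917% and 5.1% were called there. Against the other 2 mimics, 3 were called in CaSki with miR-124-3p, 1 with miR-23b-3p (CDK6) and 1 with miR-218-5p (CDK4). The shares of expressed genes were 2.05%, 1.74% and 1.01%. CCND2 was among the 3, and its pass is uncertain at its few degrees of freedom. CDK4 with miR-218-5p turned from -0.03 to 0.43, and its comparator includes miR-124-3p, with which CDK4 stood at -0.63. In C-33A with miR-23b-3p the count stayed at 1 (0.532%), but the gene was CCND2 and not CCND3. Pathway genes called at an FDR under 0.10 were 2 in C-33A with miR-124-3p (0.86% of expressed genes) and 1 with miR-218-5p (0.39%). At an FDR under 0.01 they were 3 of 52 in CaSki with miR-23b-3p (4.76%). Adjusted at either floor they were 1, 2 and 1 in C-33A with miR-218-5p, miR-124-3p and miR-23b-3p. The shares of genes there were 0.455%, 1.13% and 0.394% at the floor of 0, and 0.574%, 1.46% and 0.482% at 1. In CaSki with miR-23b-3p the pathway genes called were 11 of 52, beside 16.4% and 18.9% of genes. Against the other 2 mimics they were 2 in C-33A with miR-218-5p (0.507% of expressed genes). In CaSki 1 each was called with miR-23b-3p and miR-218-5p (1.74% and 1.01% of expressed genes). That gene was SKP2 in both, so all 6 pathway genes called against the control with miR-23b-3p were lost. Against the control SKP2 stood at 0.08 and 0.02 with these mimics in CaSki. The comparator of each includes miR-124-3p, with which SKP2 stood at -1.01. The cause was not tested where it is not the setting's own construction. The differences between lines stayed at 0 members under every alternative, including an SE from the square root of F, which was chosen after seeing the data.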

Other observations

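CCND2 and CDKN2A had the fewest recovered degrees of freedom of the 10 genes in CaSki. These are the denominator degrees of freedom of the F test, worked out from each gene's F and its p. In the 3 CaSki comparisons they were 4.43 to 9.67 for CCND2 and 3.16 to 5.45 for CDKN2A. The median gene there had 31.5, 38.2 and 25.7. Between 8.59% and 9.72% of expressed genes in CaSki had under 10. With miR-23b-3p in CaSki, CCND2 had a log2 fold change of 0.68 close to the 0.72 of CDK6, with an SE of 0.325 against 0.126. In C-33A the lowest value among the 10 genes was 223, for CCND3 with miR-124-3p.

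CDK6-AS1, listed as a gene of its own and chosen after its values were seen, was at the lowest level the table lists in C-33A. In CaSki it stood at -0.42, -0.55 and -0.69 with miR-218-5p, miR-124-3p and miR-23b-3p in the authors' deposited table, where CDK6 stood at 0.12, -0.40 and 0.72. None of these values of CDK6-AS1 passed.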
